A study of Mus musculus with 16 samples.

Results

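Thrombospondins and a group of matricellular and adhesive proteins were followed at the RNA level in immortalised mouse embryonic fibroblasts (MEFs). The 10 genes are Thbs1, Thbs2, Thbs3, Thbs4 and Comp, which are the 5 mammalian thrombospondins, together with Sparc, Tnc, Postn, Fn1 and Fbln1. They were taken by symbol through the mm10 annotation, each symbol matched 1 gene, and they stand among 54453 genes of the table, of which 21872 are protein-coding. MEF-1 and MEF-2 are parental lines established from 2 sibling C57BL/6J embryos at E13.5 and immortalised by serial passage through crisis, without any transgene or treatment. From each parental line, 7 clonal lines were grown from single sorted cells, and total RNA depleted of ribosomal RNA was sequenced from all 16 lines with 1 library per line. By the study's methods MEF-1 is male and MEF-2 is female. The study's methods also report aneuploidy of some chromosomes among these lines. As each set comes from 1 embryo, differences of embryo, sex, karyotype and passage history cannot be told apart. The p-values measure the spread between the clonal lines of 1 embryo. Relative to the average of the clonal lines, the median of the chromosome 12 genes was −0.36 to −0.31 in MEF-1 and 0.29 to 0.33 in MEF-2 clones. That of chromosome 19 was 0.14 to 0.21 and −0.24 to −0.17. For chromosome 18 it was −0.50, −0.51 and −0.47 in MEF-1 lines 1, 4 and 5. It was 0.05 to 0.15 in the other clonal lines, so the MEF-1 lines were not alike in this. The values are “regularised log” (rlog) values on the log2 scale, 1 per gene and line, in which deviations from the average of the gene are shrunken towards 0, most strongly at low counts. The read depth of the libraries is unknown.

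Matricellular proteins are secreted into the extracellular matrix, where they bind structural proteins, growth factors and cell-surface receptors more than they bear load. Thrombospondins form trimers or pentamers that bind calcium, and Thbs1 and Thbs2 share domains that the pentameric Thbs3, Thbs4 and Comp lack. Fibroblasts are a main source of such proteins in culture and in connective tissue, and their fibronectin network serves as a scaffold for the deposition of collagens and tenascins.

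The label of the lines was held against marker genes of fibroblasts and other cell types. Among the 13 fibroblast markers, Col1a1, a chain of type I collagen, averaged 20.88 and the intermediate filament gene Vim 18.20 over all lines, while the surface marker Thy1 averaged 4.74, with 2.72 as the lowest and 3.43 as the highest MEF-1 clone and 3.42 and 8.02 as those of MEF-2. The endothelial gene Tie1 averaged −2.10, the macrophage gene Adgre1 −1.92, the keratinocyte gene Krt5 −1.74 and the myogenic factor Myod1 −1.74, each the lowest of its list. Averages of 0 or lower were found for 1 of 5 endothelial, 1 of 5 haematopoietic, 3 of 5 epithelial and 3 of 5 muscle markers. Others stood above Thy1, namely the endothelial receptor gene Tek (4.94), the macrophage genes Cd68 (5.03) and Csf1r (6.23) and the cadherin gene Cdh1 (7.44). The summed level of the fibroblast list (log2 of the sum of the linear values) was 21.73 to 22.20 in MEF-1 clones and 21.50 to 22.18 in MEF-2 clones. That of the endothelial list was 5.03 to 6.38 and 5.06 to 6.84, of the haematopoietic list 6.03 to 6.80 and 6.62 to 8.50, of the epithelial list 6.95 to 8.50 and 6.69 to 8.42 and of the muscle list 3.33 to 4.40 and 3.63 to 4.63, far below the fibroblast list in every line. Cartilage genes were present in both sets, with Col2a1 at an average of 18.35 and a summed cartilage level of 17.75 to 19.48 in MEF-1 and 17.86 to 19.03 in MEF-2 clones.

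The comparison between the 7 MEF-1 and the 7 MEF-2 clonal lines asks how far the matrix genes of lines from different embryos differ beyond the differences between clones. Limma was fitted across 15285 protein-coding genes with an average above 0, which include all 10 members, and a gene was called where its p-value, adjusted by Benjamini-Hochberg over all of them, was under 0.05. The mean was lower in MEF-2 than in MEF-1 for 9 of the 10 genes, and only the mean of Fn1 was higher in MEF-2. The test called 3 of them, Comp, Thbs4 and Thbs3, all lower in MEF-2. Thbs4 (average 1.09) was at the level of genes without reads in most MEF-2 clones. Its passing of the filter and its call both draw on the MEF-1 clones with reads, so this call is counted but not read further. Of all genes tested, 56.1% were called, and 28.6% were called with the higher mean in MEF-1, so that 3 of 10 is below the share called in either direction and near the share called as higher in MEF-1. The median difference, MEF-2 minus MEF-1, was −0.27 over the members and 0.00 over all genes tested. The ranges of the clonal lines overlapped for all 10 genes, while 25.9% of the genes tested had no overlap.

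**Figure D1:**
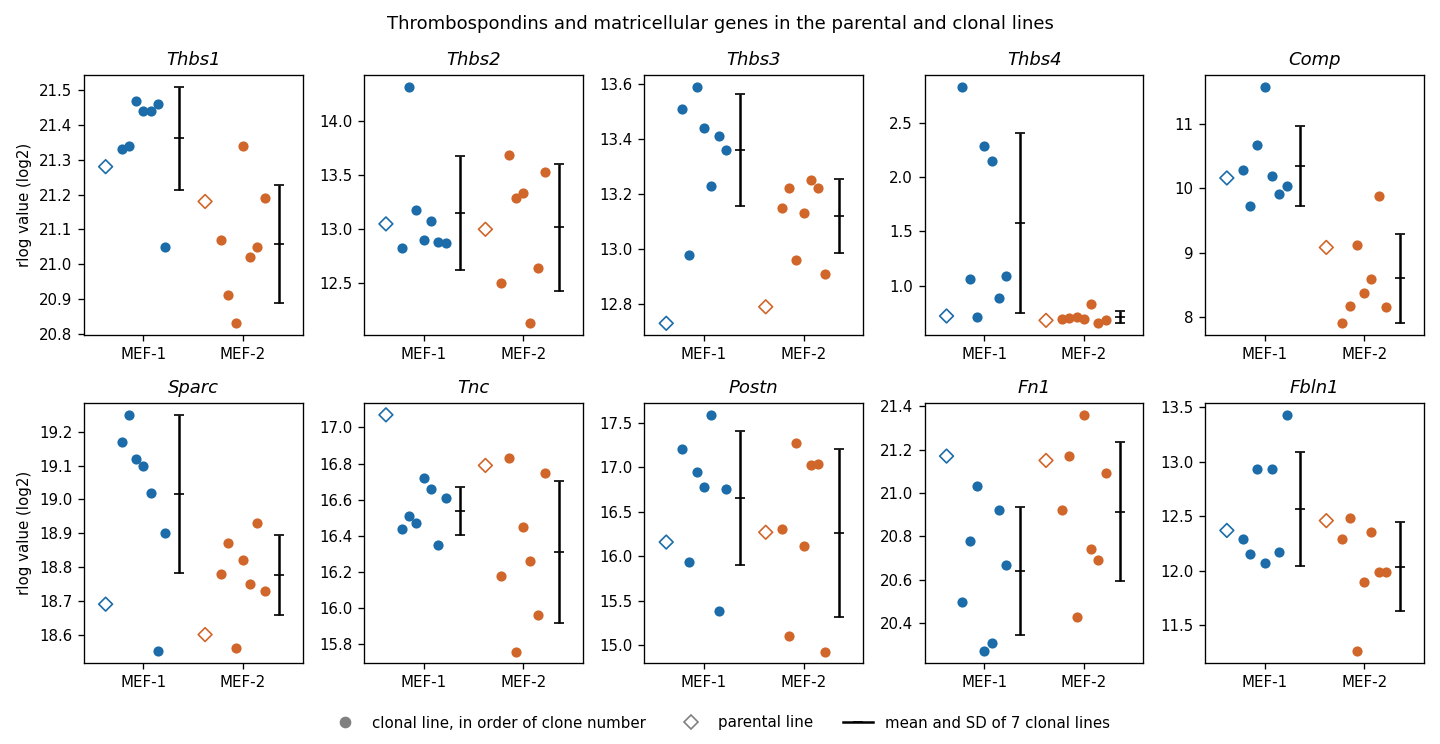
rlog value (log2 scale, a different axis range in each panel) of the 10 genes in every line, with filled points for the clonal lines in the order of their numbers, open diamonds for the parental lines and bars for the mean and SD of 7 clonal lines. Comp and Thbs4 were higher in the MEF-1 clonal lines (means 10.35 and 1.57) than in the MEF-2 clonal lines (8.60 and 0.71), and both parental lines of Thbs3 lie below all their clones.

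**Figure D2:**
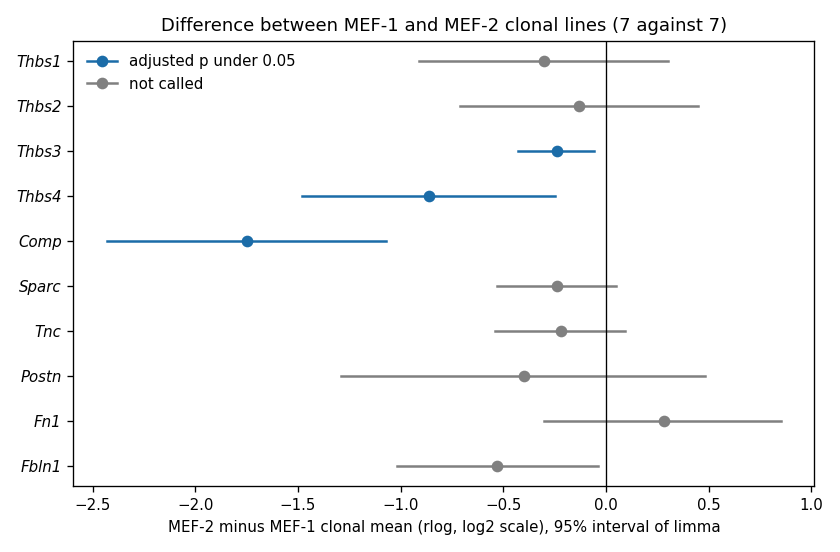
Difference of the clonal means, MEF-2 minus MEF-1, on the rlog (log2) scale with the 95% interval of limma for each gene. Comp, Thbs4 and Thbs3 (blue) were called, at −1.75, −0.86 and −0.24, and the other 7 genes (grey) were not.

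Thbs1 encodes a trimeric thrombospondin that binds CD47 and activates latent TGF-beta (plus strand of chromosome 2, 118111876 to 118127133). It had the highest average of all protein-coding genes. Its level in MEF-1 clonal lines 1 to 7 was 21.33, 21.34, 21.47, 21.44, 21.44, 21.46 and 21.05, and in MEF-2 clonal lines 1 to 7 it was 21.07, 20.91, 20.83, 21.34, 21.02, 21.05 and 21.19. MEF-1 line 7 lay among the MEF-2 lines and MEF-2 line 4 among the MEF-1 lines, and 5 of 7 MEF-1 lines were above every MEF-2 line. The difference was −0.30 with SE 0.28 (95% interval −0.91 to 0.30) and was not called (limma adjusted p = 0.379). This SE is larger than the spread of the gene, with an SD of 0.15 in MEF-1 and 0.17 in MEF-2 (n = 7 each), as the variance prior of limma follows the level of the gene. With a constant variance prior limma called the gene (adjusted p = 0.00813), and so did an exact permutation test, two-sided, over the 14 lines (p = 0.00816, adjusted over all genes tested 0.0178). In MEF-2 line 3, which held the lowest value, the median of the chromosome 2 genes was −0.27 relative to the average of the clonal lines. With the chromosome median of each line taken away, the difference was −0.23 (limma adjusted p = 0.531). Under quantile normalisation the difference was −0.11 (limma adjusted p = 0.699), but genes of the same rank then take the same value in every line. For a gene at the top of the ranking this leaves little room for a difference, so that this value decides nothing.

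Thbs2, the other trimeric thrombospondin, is known as an inhibitor of angiogenesis that shapes collagen fibrils (minus strand of chromosome 17, 14665500 to 14694235). The MEF-1 clonal lines 1 to 7 stood at 12.83, 14.32, 13.18, 12.90, 13.08, 12.88 and 12.87. The MEF-2 clonal lines stood at 12.50, 13.69, 13.29, 13.34, 12.13, 12.64 and 13.53. A single line, number 2, was thus apart in MEF-1, while the MEF-2 lines lay in an upper group of 4 and a lower group of 3 with a gap between 12.64 and 13.29. The difference of −0.13 (95% interval −0.71 to 0.45, limma adjusted p = 0.695) was not called, and it was 0.06 without MEF-1 line 2. Leaving out MEF-2 line 1, 2, 5, 6 or 7 also moved it, within −0.25 to 0.01. The median of the chromosome 17 genes was −0.26 in MEF-1 line 1, which had the lowest MEF-1 value. The SD of Thbs2 among clones, 0.53 and 0.59, was as large as or larger than that of 97.0% of the highly expressed genes in MEF-1 and 98.1% in MEF-2, where the median SD was 0.14 and 0.11.

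Thbs3 encodes a pentameric thrombospondin of skeletal tissues (plus strand of chromosome 3, 89215180 to 89226837). Its values were 13.51, 12.98, 13.59, 13.44, 13.23, 13.41 and 13.36 in the MEF-1 clonal lines and 13.15, 13.22, 12.96, 13.13, 13.25, 13.22 and 12.91 in the MEF-2 clonal lines. All MEF-1 lines but numbers 2 and 5 lay above every MEF-2 line. The difference was small, −0.24 with SE 0.09 (1.18-fold), and was called (limma adjusted p = 0.0271, adjusted p of the exact permutation test 0.045). The call did not hold when MEF-1 line 1, 3 or 4 or MEF-2 line 3 or 7 was left out (limma adjusted p from 0.0504 to 0.059) or with the parental lines added (adjusted p = 0.13).

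Thbs4, a pentameric thrombospondin of tendon, muscle and nerve (minus strand of chromosome 13, 92751590 to 92794818), was close to silent. Its values in the MEF-1 clonal lines were 2.83, 1.06, 0.71, 2.28, 2.15, 0.89 and 1.09, and in the MEF-2 clonal lines 0.69, 0.70, 0.71, 0.69, 0.83, 0.66 and 0.68. A gene without reads in a line takes a value set by its average and by the size factor of the library. In 9 lines, namely both parental lines, MEF-1 line 3 and all MEF-2 clonal lines except number 5, the value of Thbs4 lay within 0.001 of a straight line, fitted through them, on the level that genes without reads take. MEF-1 lines 1, 4 and 5 were above this line by 2.18, 1.58 and 1.49, MEF-1 lines 2, 6 and 7 by 0.38, 0.20 and 0.39, and MEF-2 line 5 by 0.18. Values above it were thus found in 6 of 7 MEF-1 and 1 of 7 MEF-2 clonal lines, and not in the parental lines. In MEF-1 lines 1, 4 and 5, the highest for Thbs4, the median of the chromosome 18 genes was −0.50, −0.51 and −0.47. In the other clonal lines this median was 0.05 to 0.15, and its part in the result for Thbs4 was not tested. The difference of −0.86 with SE 0.29 (limma adjusted p = 0.0194, adjusted p of the exact permutation test 0.00508) is on the shrunken scale, and no fold is given against a set that is mostly at the level without reads.

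Comp, the cartilage oligomeric matrix protein, also a pentameric thrombospondin, binds collagens and is abundant in cartilage and tendon (plus strand of chromosome 8, 70373558 to 70382066). Its difference between the sets was the largest of the 10 genes. The MEF-1 clonal lines held 10.29, 9.73, 10.67, 11.58, 10.19, 9.91 and 10.04 and the MEF-2 clonal lines 7.90, 8.17, 9.11, 8.37, 8.59, 9.88 and 8.16. Only MEF-2 line 6 reached into the range of MEF-1. The difference was −1.75 with SE 0.32 (95% interval −2.43 to −1.07), a 3.36-fold higher level in MEF-1 (limma adjusted p = 0.000306), and it was called under all alternatives, from −1.96 to −1.54. The median of the chromosome 8 genes was −0.17 in MEF-1 line 1. The difference was −1.79 with the chromosome median of each line taken away (limma adjusted p = 0.000285). Without MEF-1 line 1 it was −1.76 (limma adjusted p = 0.000722). The copy number of Comp in that line was not tested.

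As Comp is a cartilage gene, the 5 cartilage markers are given beside it. Of these, the collagen gene Col9a1 (9.38 ± 1.44 in MEF-1 and 6.22 ± 0.70 in MEF-2, SD, n = 7 each) and the matrilin gene Matn1 (5.99 ± 1.71 and 2.84 ± 0.22) were called as higher in MEF-1 (limma adjusted p = 0.000203 and 0.000406). Sox9, Col2a1 and Acan were not called, with differences of −0.16, −0.25 and 0.39. MEF-1 line 4, the highest for Comp, was also highest for Col9a1 (12.19) and Matn1 (8.77), and MEF-2 line 6 was the highest MEF-2 line for Comp, Col9a1 (7.51), Col2a1 (18.72) and Sox9 (14.24). Other markers peaked elsewhere. In MEF-1, Col2a1 (19.28) and Sox9 (14.46) were highest in line 6, where Comp was at 9.91, and Acan (16.14) in line 5. In MEF-2, Acan (16.39) was highest in line 4 and Matn1 (3.26) in line 1, which had the lowest Comp value. Over the 14 clonal lines, with the mean of each set taken away, r with Comp was 0.68 for Col9a1, 0.56 for Col2a1, 0.46 for Matn1, 0.28 for Sox9 and 0.12 for Acan. Within MEF-1 and within MEF-2, r was 0.85 and 0.51 for Col9a1, 0.51 and 0.64 for Col2a1 and 0.19 and 0.45 for Sox9. It was 0.74 and −0.40 for Matn1 and 0.23 and −0.01 for Acan. The points share their libraries, and the part of such cells or genes in the result for Comp was not tested.

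The upstream sequences of Thbs3 and Thbs4, the called pentameric thrombospondins in the RefSeq promoter table, and of Postn, whose clones covered the widest range of the 10 genes in both sets, are shown because the study asked how the methylation of CpG sites is inherited in these lines. Each run gives the 250 bases before a RefSeq start (build GRCm38.p6), 5′ to 3′ on the strand of the gene, with CpG dinucleotides in capitals.
Thbs3, chr3:89214930-89215179, plus strand: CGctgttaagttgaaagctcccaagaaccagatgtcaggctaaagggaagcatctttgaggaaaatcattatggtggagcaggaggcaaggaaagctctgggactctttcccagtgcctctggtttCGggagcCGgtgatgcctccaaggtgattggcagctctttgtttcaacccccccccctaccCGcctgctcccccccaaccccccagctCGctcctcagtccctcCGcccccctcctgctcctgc
Thbs4, chr13:92794819-92795068, minus strand: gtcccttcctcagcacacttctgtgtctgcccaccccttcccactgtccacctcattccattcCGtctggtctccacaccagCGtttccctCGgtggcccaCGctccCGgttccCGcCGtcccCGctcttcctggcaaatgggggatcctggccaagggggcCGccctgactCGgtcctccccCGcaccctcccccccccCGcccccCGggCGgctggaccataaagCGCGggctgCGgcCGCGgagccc
Postn, chr3:54360857-54361106, plus strand: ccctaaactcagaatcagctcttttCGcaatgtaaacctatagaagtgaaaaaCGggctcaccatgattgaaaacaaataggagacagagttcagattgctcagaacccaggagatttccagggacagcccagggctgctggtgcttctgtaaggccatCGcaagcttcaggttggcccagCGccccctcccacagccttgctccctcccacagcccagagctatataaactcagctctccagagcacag

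Thbs4, at or near the level of genes without reads in most lines, held 19 CpGs, and 82.1% of the 32851 promoters in the table had no more. Thbs3, expressed in every line, held 6 CpGs, the median of all promoters, and the downstream start of Postn held 4 (44.4% of promoters had no more). Of the members, 7 were found in the table, with 10 starts, where the starts of Tnc and those of Fbln1 overlap. The TATA box motif TATAAA, searched on both strands, was in 4 of these starts, at Thbs2, at both starts of Tnc and at the downstream start of Postn, and in 12.4% of all promoters. The GC box motif GGGCGG was in 5 of 10 starts and in 32.7% of all promoters, and the AP-1 motif TGACTCA was in 0 of 10 starts and in 4.46% of all. Methylation data were not used here, and a motif describes the letters of the window only.

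Sparc, a collagen-binding glycoprotein also called osteonectin (minus strand of chromosome 11, 55394500 to 55423183), ranked 8th of the protein-coding genes by average. The MEF-1 clonal lines held 19.17, 19.25, 19.12, 19.10, 19.02, 18.55 and 18.90, and the MEF-2 clonal lines 18.78, 18.87, 18.56, 18.82, 18.75, 18.93 and 18.73. Of the MEF-1 lines, 5 were above and 1, number 6, was below all MEF-2 lines. The difference of −0.24 with SE 0.14 was not called (limma adjusted p = 0.149). With a constant variance prior it was just above the threshold (limma adjusted p = 0.0506), and the exact permutation test did not call it (adjusted p = 0.062). It was called without MEF-1 line 6 (−0.32, limma adjusted p = 0.0454). The median of the chromosome 11 genes in that line was −0.13.

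Tnc encodes tenascin-C, a hexameric glycoprotein of remodelling matrix (minus strand of chromosome 4, 63959785 to 64047015). The MEF-1 clonal lines were close together, at 16.44, 16.51, 16.47, 16.72, 16.66, 16.35 and 16.61. The MEF-2 clonal lines covered 1.07, at 16.18, 16.83, 15.76, 16.45, 16.26, 15.96 and 16.75, with lines both above and below all MEF-1 lines. The SD was 0.13 in MEF-1 and 0.39 in MEF-2, and the difference of the means was −0.22 (95% interval −0.54 to 0.09, limma adjusted p = 0.208), or −0.13 without MEF-2 line 3.

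Postn encodes periostin, a matrix protein of periosteum, skin and healing tissue that supports collagen crosslinking (plus strand of chromosome 3, 54361109 to 54391037). Its values in the MEF-1 clonal lines were 17.21, 15.94, 16.95, 16.78, 17.59, 15.39 and 16.76, and in the MEF-2 clonal lines 16.31, 15.10, 17.27, 16.12, 17.03, 17.04 and 14.93. The clones of a single embryo thus differed by 2.20 in MEF-1 and 2.34 in MEF-2, while the means differed by −0.40 (95% interval −1.29 to 0.48, limma adjusted p = 0.425). Single lines moved this value, to −0.25 without MEF-1 line 5, −0.61 without MEF-1 line 6, −0.21 without MEF-2 line 2 and −0.18 without MEF-2 line 7. Its SD of 0.75 and 0.94 was as large as or larger than that of 99.2% and 99.4% of the highly expressed genes in the same set.

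Fn1 encodes fibronectin, the adhesive glycoprotein that integrins assemble into fibrils (minus strand of chromosome 1, 71585520 to 71653200), and ranked 3rd of the protein-coding genes. It was at 20.50, 20.78, 21.03, 20.27, 20.31, 20.92 and 20.67 in the MEF-1 clonal lines and at 20.92, 21.17, 20.43, 21.36, 20.74, 20.69 and 21.09 in the MEF-2 clonal lines. The sets overlapped widely, with 3 MEF-2 lines above all MEF-1 lines. The difference of 0.28 with SE 0.27 was not called (limma adjusted p = 0.401, adjusted p of the exact permutation test 0.171). Nor was it called with a constant variance prior (limma adjusted p = 0.145). The median of the chromosome 1 genes was −0.19 in MEF-1 line 5 and −0.11 in MEF-1 line 7. MEF-1 lines 4, 5 and 1 held the lowest MEF-1 values of Fn1. In these lines the median of the chromosome 18 genes was −0.51, −0.47 and −0.50, and its part in the result was not tested.

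Fbln1 encodes fibulin-1, which binds fibronectin and elastic fibres (plus strand of chromosome 15, 85205949 to 85286535). The MEF-1 clonal lines held 12.29, 12.15, 12.93, 12.07, 12.93, 12.17 and 13.43, and the MEF-2 clonal lines 12.29, 12.48, 11.26, 11.90, 12.36, 11.99 and 11.99. MEF-1 lines 3, 5 and 7 were above all MEF-2 lines, and the other MEF-1 lines lay within their range. The difference of −0.53 with SE 0.23 had a 95% interval of −1.02 to −0.04 and an adjusted p just above the threshold (limma adjusted p = 0.0601), and 6 of 24 alternatives called it. The median of the chromosome 15 genes was 0.18 in MEF-1 line 5.

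The spread between clones varied from gene to gene. In MEF-1, 5 of the 10 genes covered a range of 1 or more on the log2 scale, namely Thbs2, Thbs4, Comp, Postn and Fbln1, against 24.2% of all genes tested. In MEF-2, 5 genes did so, with Tnc in place of Thbs4, against 18.1% of all genes tested. Thbs2, Postn and Fbln1 were among the more variable highly expressed genes in both sets. For Thbs2 in MEF-1 this rested on line 2 (14.32), as the other MEF-1 clones lay between 12.83 and 13.18. The SD of Fbln1 (0.53 and 0.41) was as large as or larger than that of 97.0% and 94.8% of the highly expressed genes. For Thbs1 this share was 52.4% and 71.8%. A limma fit to the deviations of each line from the median of its set called 0 of the 10 genes and 2 of 15285 (0.0131%), with 1329 genes at an unadjusted p under 0.05, but its power at this number of lines is low and a missed call is not read as similar spread.

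Levels of different genes were compared per length, as the rlog value minus the log2 of the longest annotated transcript in kb. Over the 14 clonal lines Thbs1 was highest, at 18.66 ± 0.22 (SD), and was above Fn1 in 14 of 14 lines. Fn1 (17.72 ± 0.33) and Sparc (17.69 ± 0.22) came next, and their order differed between the sets. Sparc was the higher in 5 of 7 MEF-1 clones (Fn1 minus Sparc −0.23 ± 0.42) and Fn1 in 6 of 7 MEF-2 clones (0.28 ± 0.28), neither mean being larger than its SD, and this change of order was not tested. Sparc was above Postn in all lines by 3.62 ± 0.81. Postn (14.07 ± 0.85) and Tnc (13.59 ± 0.30) overlapped, with Postn the higher in 10 of 14 lines. Below Tnc stood Thbs3 (11.23 ± 0.21), then Thbs2 (10.53 ± 0.54) and Fbln1 (10.43 ± 0.53), and these last genes exchanged places in 7 of 14 lines. Comp (8.20 ± 1.10) was below Fbln1 in 13 of 14 lines, and Thbs4 (−0.54 ± 0.72) was 8.74 ± 0.86 below Comp. As Thbs4 was at or near the level of genes without reads in most lines, its value and this gap largely reflect that level.

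**Figure D3:**
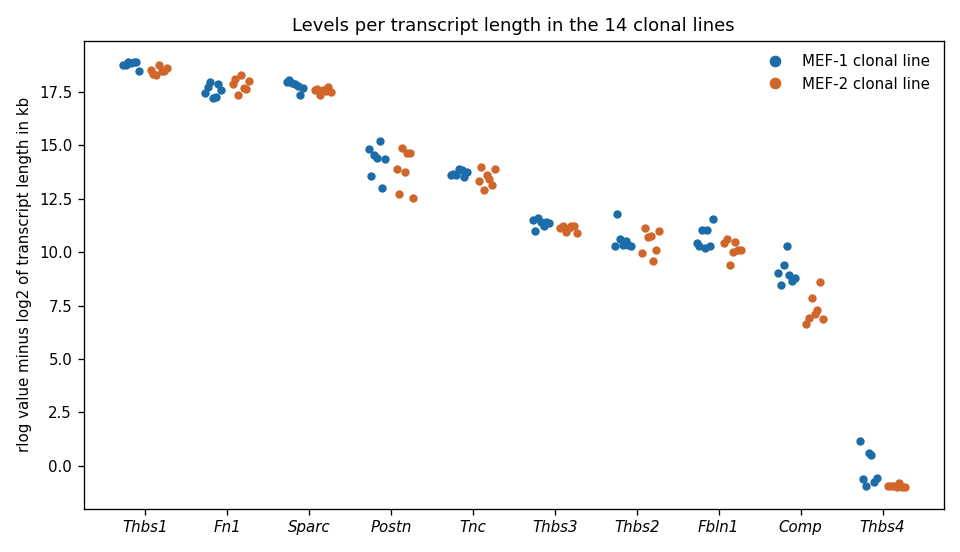
rlog value minus the log2 of the transcript length in kb (log2 scale) for each gene in the 14 clonal lines, in order of the mean, with blue points for MEF-1 and orange points for MEF-2. The genes fall from 18.66 (Thbs1) to −0.54 (Thbs4, at or near the level of genes without reads in most lines), and the points of Fn1 and Sparc, of Postn and Tnc and of Thbs2 and Fbln1 overlap.

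Each parental line was set beside the clones grown from it, with 1 library per parental line and therefore no test. The Thbs3 level of the parental line was below all 7 clones in both sets, at 12.73 in MEF-1 and 12.79 in MEF-2, against clonal means of 13.36 and 13.12. Tnc and Fn1 were above all clones in MEF-1 (parental lines at 17.07 and 21.17) but not in MEF-2 (16.79 and 21.15), where 1 and 2 clones exceeded the parental line. In all, the parental line lay outside the range of its clones for 3 of 10 genes in MEF-1, where 40.9% of the genes tested did, and for 1 of 10 in MEF-2, where 34.2% did. Between the parental lines Comp differed by −1.08 (MEF-2 minus MEF-1, 10.16 and 9.08), and the other 9 genes lay between −0.28 (Tnc) and 0.11 (Postn).

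Pairs of the 10 genes were compared across the 14 clonal lines after the mean of each set had been taken away. This is a description of 45 pairs without a test, and the genes share libraries. Pearson's r ran from −0.69 to 0.54 with a median of 0.11, it was above 0 in 28 pairs, and its sign was the same within MEF-1 and within MEF-2 in 24 of 45 pairs. The lowest value was for Postn and Fn1 (r = −0.69, with −0.58 in MEF-1 and −0.77 in MEF-2), followed by Thbs2 and Thbs3 (r = −0.65, with −0.79 and −0.51). The highest was for Comp and Postn (r = 0.54, with 0.37 and 0.67). For Tnc, r with Fn1 was −0.76 in MEF-1 and 0.83 in MEF-2, and r with Postn was 0.55 and −0.93. Tnc varied little in MEF-1 (SD 0.13, against 0.39 in MEF-2), and this change of sign was not tested. The clones in which Postn was lowest (MEF-1 line 6, MEF-2 lines 2 and 7) were at 20.92, 21.17 and 21.09 for Fn1. The highest Fn1 values were in other clones, MEF-1 line 3 (21.03, Postn 16.95) and MEF-2 line 4 (21.36, Postn 16.12). MEF-1 line 2, next lowest for Postn in its set (15.94), was at 20.78 for Fn1.

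**Figure D4:**
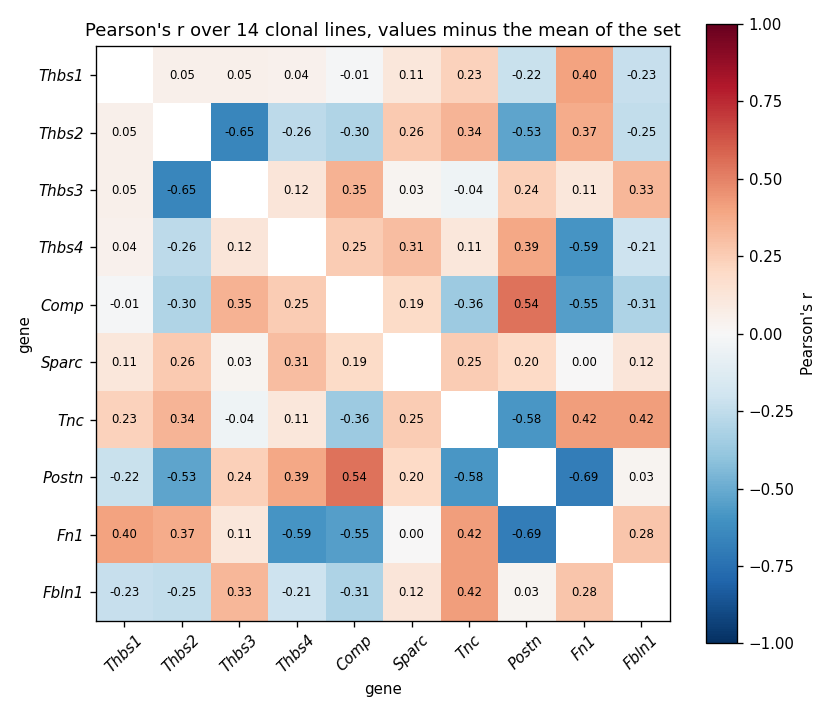
Pearson's r (colour and number) between each pair of the 10 genes over 14 clonal lines, with the mean of the set of 7 taken from each value. The lowest r is −0.69, between Postn and Fn1, and the highest 0.54, between Comp and Postn.

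For each gene, the 2 of the 15285 genes whose pattern was most like it in the same 14 values were named. As they are the highest of many, their r is high by choice and is a description only. Thbs1 was closest to Gopc (r = 0.84) and Fgf9 (0.83), Thbs2 to Cog7 (0.92) and Ccdc130 (0.90), Thbs3 to Tpt1 (0.93) and Qrich1 (0.87), Thbs4 to Upb1 (0.99) and Padi1 (0.96), and Comp to Tmem17 (0.86) and the cartilage factor Sox5 (0.85). Sparc was closest to Cd302 (0.92) and Ambra1 (0.91), Tnc to Lrrc17 (0.95) and the collagen gene Col5a2 (0.95), Postn to 6030458C11Rik (0.92) and Tmem67 (0.89), Fn1 to the perlecan gene Hspg2 (0.88) and Igfbp2 (0.87), and Fbln1 to Rpl9 (0.90) and Gtdc1 (0.88). Only Igfbp2 lies on the chromosome of its partner, chromosome 1. No member was among the closest genes of another member. For Tnc and Col5a2, r was 0.71 in MEF-1 and 0.98 in MEF-2, and for Thbs4 and Padi1 it was 0.96 and −0.32, as Thbs4 hardly varied in MEF-2.

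Genes that act with these proteins were counted in 4 further lists, beside 4208 genes called as higher and 4365 called as lower in MEF-2 of 15285 tested (median 0.00). Among 23 related matricellular genes, 21 were tested, 8 were higher and 7 lower in MEF-2, with a median difference of 0.50. The elastic fibre gene Fbln5 (14.14 ± 0.16 in MEF-1 and 15.27 ± 0.22 in MEF-2, SD, n = 7 each) and Fbln2 (14.99 ± 0.87 and 16.13 ± 0.94) had the largest positive differences (both 1.14, limma adjusted p = 2.23e-07 and 0.038), and Fbln2 was not called by the exact permutation test (adjusted p = 0.0679). Fbln5 lies on chromosome 12, where the median of the genes was −0.36 to −0.31 in MEF-1 and 0.29 to 0.33 in MEF-2 clones, and with the chromosome median taken away its difference was 0.50 (limma adjusted p = 0.000644). Efemp1, which encodes fibulin-3, was lower in MEF-2 by far the most, from 11.67 ± 0.74 to 5.90 ± 0.22 (limma adjusted p = 4.23e-10), followed by the matrilin gene Matn4 (10.74 ± 0.89 and 7.29 ± 0.79, limma adjusted p = 5.53e-06). Of the other fibulin genes in the list, which were looked up after their values were seen, Fbln7 (−3.02, limma adjusted p = 1.87e-05) and Efemp2, which encodes fibulin-4 (−1.11, limma adjusted p = 4.49e-10), were also lower in MEF-2. Hmcn1, which encodes fibulin-6, was higher in MEF-2 (0.90, limma adjusted p = 0.00604). Efemp2 lies on chromosome 19, where the median of the genes was 0.14 to 0.21 in MEF-1 and −0.24 to −0.17 in MEF-2 clones. The part of this shift in its difference was not tested.

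Of 21 genes for cell-surface receptors, 20 were tested, with 5 higher and 5 lower in MEF-2 and a median of −0.11. The integrin genes Itgb3 (a difference of 1.46, limma adjusted p = 0.000154) and Itga5, the fibronectin receptor subunit (0.77, limma adjusted p = 0.00985), were higher in MEF-2. Itga9, a tenascin receptor subunit (−2.39, limma adjusted p = 2.6e-06), and Itgb6 (−0.82, limma adjusted p = 0.0186) were lower, but Itgb6 was not called under quantile normalisation (−0.38, limma adjusted p = 0.263).

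Of 19 genes for matrix assembly and crosslinking, all tested, 5 were higher and 8 lower in MEF-2, with a median of −0.38. The procollagen protease gene Tll1 (9.56 ± 0.88 in MEF-1 and 12.68 ± 1.00 in MEF-2, limma adjusted p = 4.23e-05) and the lysyl oxidase gene Loxl2 (13.66 ± 0.33 and 15.78 ± 0.73, limma adjusted p = 1.41e-05) were higher in MEF-2. The proteoglycan genes Dcn (11.02 ± 0.92 and 6.29 ± 0.47, limma adjusted p = 5.43e-08) and Lum (10.48 ± 1.05 and 6.80 ± 1.15, limma adjusted p = 4.02e-05) were lower. Both also stand in the fibroblast list, in which 1 of 13 markers, Thy1 (a difference of 2.59, limma adjusted p = 0.00392), was higher and 5 were lower in MEF-2.

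Of 25 TGF-beta pathway genes and transcriptional regulators, all tested, 8 were higher and 5 lower in MEF-2, with a median of 0.17. The ligand genes Tgfb3 (a difference of 1.32, limma adjusted p = 1.48e-05) and Tgfb1 (0.95, limma adjusted p = 1.5e-06) were higher in MEF-2, and the receptor gene Tgfbr2 (−1.33, limma adjusted p = 0.000259) and the latent TGF-beta binding gene Ltbp3 (−0.96, limma adjusted p = 1.45e-05) were lower. Tgfb3 lies on chromosome 12 and its difference was 0.68 (limma adjusted p = 0.00405) with the chromosome median taken away. Ltbp3 lies on chromosome 19, where the median was 0.14 to 0.21 in MEF-1 and −0.24 to −0.17 in MEF-2 clones, and its difference was then −0.59 (limma adjusted p = 0.00142). Among the remaining markers, the endothelial gene Kdr was lower (−0.89, limma adjusted p = 0.00386) and the haematopoietic genes Csf1r (1.36, limma adjusted p = 0.00615) and Cd79a (0.30, limma adjusted p = 0.0413) were higher in MEF-2, and no epithelial or muscle marker was called. Csf1r lies on chromosome 18, and its difference was 1.07 (limma adjusted p = 0.0129) with the chromosome median taken away. The call of Cd79a was lost in 12 of 23 alternatives, among them the one with the chromosome median taken away (0.19, limma adjusted p = 0.185), and that of Kdr under quantile normalisation (−0.53, limma adjusted p = 0.0621). Their part in the results for the 10 genes was not tested.

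**Figure D5:**
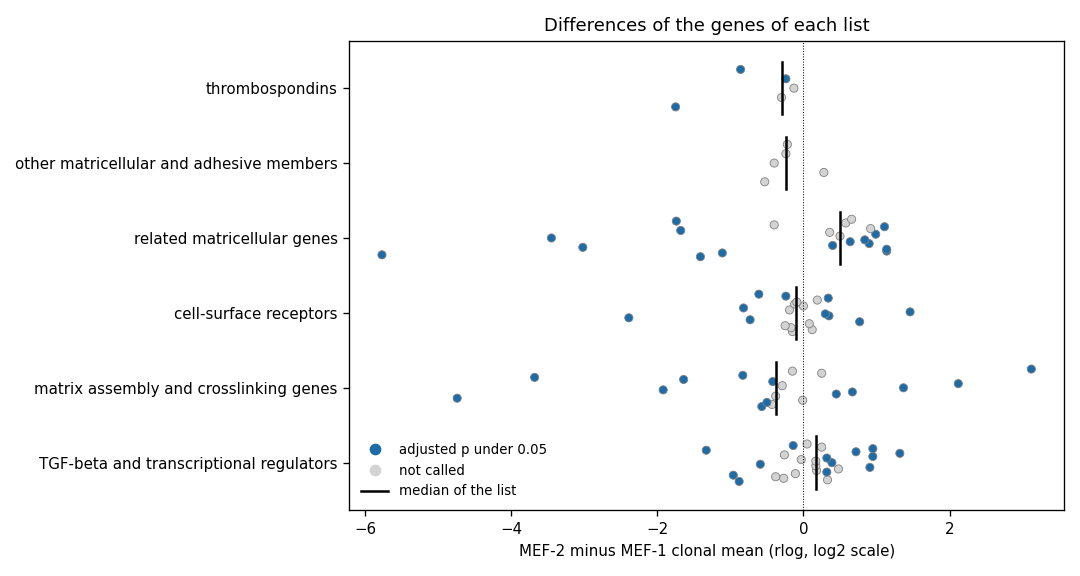
Difference of the clonal means, MEF-2 minus MEF-1 (rlog, log2 scale), for each tested gene of 6 lists, in blue where limma called it and in grey where it did not, with a black bar at the median of the list. The thrombospondins and the other members lie between −1.75 and 0.28, inside the range of the related lists, whose extremes are Efemp1 (−5.77) and Tll1 (3.12).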

How the data were processed

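The authors trimmed the reads (Trim Galore 0.6.0), quantified transcripts with Salmon 1.5.2 against mm10 and deposited log2 values made by the regularised log transformation of DESeq2 1.24.0 (versions as in the submitters' processing notes), with 1 value per gene and line. How transcripts were summed into genes is not given in the sources used here. The table holds no counts, so depth is unknown and intervals from counting are not given. Line names were mapped through the sample labels, with 0 names left without a sample. Gene symbols, biotypes and coordinates (1-based) come from GENCODE mouse release 21 on mm10, in which 253 of the 54453 identifiers were not found, and promoters come from RefSeq (GRCm38.p6).

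The rlog values were fitted with limma 3.58.1 (R 4.3.3), with a trended variance prior, for 7 MEF-1 against 7 MEF-2 clonal lines over protein-coding genes with an average above 0, and p-values were adjusted over all 15285 genes. Parental lines entered only an alternative. On simulated data of 15285 genes, 172 of 200 genes shifted by 1 were called, and so were 11 of the remaining, unshifted genes. Of 200 genes given a spread 6 times wider in MEF-1, a Levene-type limma fit called 4. The chromosome median of a line is the median, over genes of the chromosome above the 40th percentile of the average, of each value after the average of the 14 clonal lines is subtracted, centred on the autosomes. Highly expressed genes are those above the 80th percentile, at 11.96.

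The members and lists were chosen with earlier results of these data known. All 10 members are named, and from each other list the 2 called genes that differed most in each direction. The alternatives were a stricter filter and none, other scalings, a constant variance prior, array weights, added parental lines, a replicate block and leaving out each clonal line, with an exact permutation test added after seeing the data. Bisulfite data were not used here. Python 3.11.15 (pandas 2.3.3, numpy 2.4.6, matplotlib 3.10.9) was used for the other steps.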

Additional observations from a re-analysis of the deposited data

Results flagged for a closer look

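Lines were set apart where the gap of the highest or lowest clonal line to its nearest neighbour, divided by the range of the 7 lines, was above the critical value of Dixon. About 1 in 20 sets passes this by chance, which is 3.2 of the 64 sets of 10 members and 22 other named genes, and 5 passed, 3 of them among the 20 sets of the members. Thbs1 in MEF-1 clonal line 7 had 21.05 (nearest line 21.33). Thbs2 in MEF-1 clonal line 2 had 14.32 (nearest line 13.18). Thbs4 in MEF-2 clonal line 5 had 0.83 (nearest line 0.71). The other MEF-2 clones were at the level of genes without reads, so a single line with reads stands apart there and the share of 1 in 20 does not apply. Of the other genes, Thy1 in MEF-1 clonal line 4 was at 3.43 and Itgb6 in MEF-1 clonal line 1 at 3.87. Efemp1 was above its parental line in all MEF-1 clones (clonal mean minus parental line 1.91) and below it in all MEF-2 clones (−1.76), a difference between the sets that was not tested.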

How the results depend on the processing

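Of 24 alternatives, or 23 where the stricter filter left Thbs4 untested, all kept the calls of Comp and Thbs4, and Thbs2 was the only member to change sign, to 0.06 without MEF-1 replicate 2 and 0.01 without MEF-2 replicate 5 (from −0.25 to 0.06 when single lines were left out). Thbs3 was lost in 7 alternatives, Fbln1 was gained in 6, Thbs1 in 2 and Sparc in 1. Of the 22 other named genes, 18 kept their side of the threshold in all alternatives, and the others were Cd79a, Fbln2, Itgb6 and Kdr, with 0 changes of sign. The count of members called was 2 to 5 and that of all genes 8026 to 8673 when single clonal lines were left out, with 5 members without MEF-1 replicate 6, and over all alternatives the genes called ran from 7760 to 9872. For spread, the genes called were 5 above the 40th percentile, 4 with the chromosome median taken away, 450 with deviations from the mean (where 1 member, Thbs4, was called) and 0 to 5 when single lines were left out, in place of 2, and the cause was not tested. Clone numbers do not pair the sets, as same-numbered clones correlated between −0.133 and 0.2 in their deviations and 1 of 7 correlated best with its own number. With a replicate block, 2 members and 8226 genes were called, and Thbs3 was the member lost (limma adjusted p = 0.0626). Shrinkage of rlog values limits what can be said of Thbs4.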
